A study of Rattus norvegicus with 8 samples.

Results

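Genes of fatty acid and surfactant phospholipid synthesis were followed in rat alveolar type II (ATII) cells that made a constitutively active mutant of HIF1a. The 10 genes were chosen by name from the synthesis route: Fasn, Acaca, Scd and Elovl5 for fatty acids, Gpam for the first acylation of glycerol-3-phosphate, and Chka, Pcyt1a, Chpt1, Cept1 and Lpcat1 for phosphatidylcholine. Each was represented by the probe set that the platform annotation gives to that gene alone. Of the 10 genes, 9 had 1 such probe set each, among 18166 genes on the array, and Fasn was not analysed here.

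Freshly isolated ATII cells of 4 male Sprague Dawley rats (age not stated in the labels) were used, and each rat gave 1 control well, infected with an adenovirus for green fluorescent protein (AdGFP), and 1 well infected with an adenovirus for the mutant HIF1a (AdHIF1a). Both wells were handled alike: infection lasted 3 h at a multiplicity of 20 and with 2% fetal bovine serum in the medium, followed by culture on 80% rat tail collagen and 20% Matrigel with 5% rat serum for 24 h before RNA was taken. The study thus compared 4 AdHIF1a wells with 4 AdGFP wells on 8 Affymetrix arrays, paired within rats and extraction days. The labels name neither the promoter that drives the transgene nor the share of cells that took up virus, and an uninfected control was not analysed here.

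ATII cells line their apical side with surfactant, a film that is mostly phosphatidylcholine with saturated acyl chains. Fatty acids are built from acetyl-CoA by acetyl-CoA carboxylase (Acaca) and fatty acid synthase (Fasn), then desaturated (Scd) or lengthened (Elovl5), and glycerol-3-phosphate acyltransferases such as Gpam join them to the glycerol backbone. Choline is phosphorylated by choline kinase (Chka), activated with CTP by Pcyt1a, which is usually the rate-limiting step, and passed to diacylglycerol by Chpt1 or Cept1. Lpcat1 then reacylates lysophosphatidylcholine, and in ATII cells it favours the saturated palmitoyl chain of surfactant. HIF1 binds DNA together with its partner Arnt at a short core motif, the hypoxia response element.

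The 5 genes that passed the test are shown first by the sequence before their start, because they went in both directions. Promoter sequences from RefSeq (GRCr8) were used for 8 of the 10 genes, and the cores ACGTG and GCGTG were searched on both strands in the 250 bases before the start. The cores can overlap each other or, in the palindrome CACGTG, themselves. Sequences run 5′ to 3′ in the direction of the gene, capitals mark a core on either strand, and bases that the annotation places inside another transcript of the gene are left out.

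Gpam (GRCr8 chr1:264176113-264176161, minus strand): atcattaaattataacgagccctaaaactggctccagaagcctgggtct
Chpt1 (GRCr8 chr7:24802530-24802771, minus strand): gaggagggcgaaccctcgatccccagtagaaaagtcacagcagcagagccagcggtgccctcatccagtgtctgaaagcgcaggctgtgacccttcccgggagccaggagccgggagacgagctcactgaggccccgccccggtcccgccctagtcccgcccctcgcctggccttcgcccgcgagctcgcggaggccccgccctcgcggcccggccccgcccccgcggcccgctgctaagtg
Elovl5 (GRCr8 chr8:87670914-87671163, plus strand): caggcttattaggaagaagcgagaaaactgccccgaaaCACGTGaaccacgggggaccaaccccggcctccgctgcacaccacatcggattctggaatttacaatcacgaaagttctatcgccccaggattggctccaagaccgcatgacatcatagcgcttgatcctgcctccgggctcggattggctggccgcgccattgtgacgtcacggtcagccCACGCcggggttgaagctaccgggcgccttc
Chka (GRCr8 chr1:210505865-210506068, plus strand): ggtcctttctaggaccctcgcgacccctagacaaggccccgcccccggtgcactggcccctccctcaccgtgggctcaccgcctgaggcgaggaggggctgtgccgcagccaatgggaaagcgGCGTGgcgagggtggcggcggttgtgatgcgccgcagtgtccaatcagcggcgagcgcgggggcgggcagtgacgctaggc
Lpcat1 (GRCr8 chr1:31644947-31645196, minus strand): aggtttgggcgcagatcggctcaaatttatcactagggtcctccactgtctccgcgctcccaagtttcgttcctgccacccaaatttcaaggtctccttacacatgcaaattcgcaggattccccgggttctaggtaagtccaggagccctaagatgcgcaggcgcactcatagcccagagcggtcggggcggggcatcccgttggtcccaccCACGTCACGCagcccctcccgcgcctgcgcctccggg

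The windows of Gpam and Chpt1, whose signals were higher in the AdHIF1a wells, held neither core. Those of the 3 genes with lower signals held at least 1. Elovl5 had ACGTG on both strands of CACGTG 212 to 207 bases before the start, and GCGTG at 31 to 27 bases. Chka had GCGTG at 127 to 123 bases and again at 41 to 37 bases, the latter in the part left out above, and Lpcat1 had ACGTG at 37 to 33 bases followed by GCGTG at 32 to 28 bases. Among the 14502 promoters of tested genes, 18.9% held ACGTG, 35.1% held GCGTG and 45.5% held either core, so such matches are common. Of the 8 genes with a promoter, 6 held a core, the uncalled Scd, Pcyt1a and Cept1 included. The annotation places the windows of Scd and Cept1 wholly inside the gene. It also places there 226 bases of the window of Pcyt1a, 201 of Gpam, 46 of Chka and 8 of Chpt1. How often this holds for the other tested genes was not counted, so the share of these genes is not set against 45.5%. A match is not a binding site, and its absence from a window of this length says nothing about the factor.

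Within the route, the glycerol acylation gene Gpam and the terminal choline gene Chpt1 rose in the AdHIF1a wells, by 1.73-fold and 1.94-fold, while Chka, Lpcat1 and Elovl5 fell by 1.94-, 1.74- and 1.49-fold. Acaca, Scd, Pcyt1a and Cept1 did not pass the test. A gene counted as changed when its limma p-value, adjusted by the Benjamini-Hochberg method over all 18166 genes, was under 0.05. By that rule 5 of the 9 measured genes were called, against 13.4% of all genes. Of these, 2 were higher, against 5.68% of all genes, and 3 were lower, against 7.77%. The AdGFP and AdHIF1a wells did not overlap for these 5, as for 22.5% of all genes. The median difference of the 9 measured genes was -0.14, beside -0.005 for all genes. The shares over all genes include dim genes, whereas the 9 lay at percentiles 63.2 to 96.0 of mean signal. With probe sets under the median mean signal left out, 1343 genes were higher and 1859 lower, more than without this filter. The share called among genes of like signal was not counted. The 10 genes were chosen with results of these data known, so the counts describe them and do not set them apart from other genes.

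Differences are AdHIF1a minus AdGFP within rats on the log2 scale, ± the standard error (SE) of the paired fit with 4 rats, and signals are log2 signals with the SD over 4 wells. Levels of different genes are not compared, since probe sets differ in brightness. In every well the 9 genes lay above the medians of the arrays (5.00 to 5.20), away from the floor of the scale. RNA came from whole wells, so fewer cells of a type and less RNA per cell cannot be told apart.

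**Figure D1:**
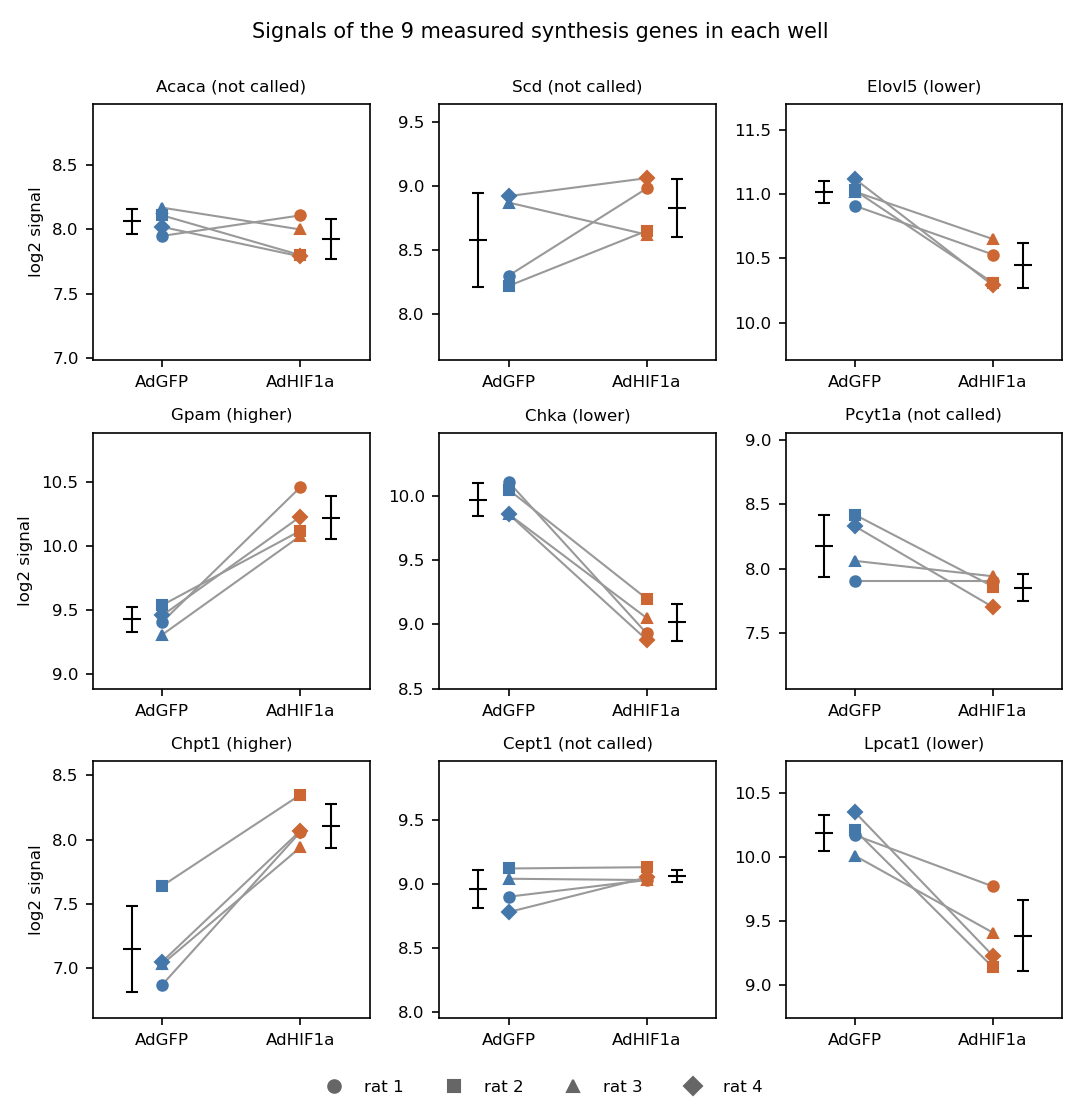
Log2 signal (vertical axes, each spanning 2 log2 units) of the 9 measured genes in the 4 AdGFP wells (blue) and 4 AdHIF1a wells (orange), with lines joining the wells of a rat and bars giving the mean ± SD beside each group. The groups do not overlap for Gpam, Chpt1, Elovl5, Chka and Lpcat1, and overlap for the other 4 genes.

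Among the fatty acid genes, Acaca, the cytosolic acetyl-CoA carboxylase that commits carbon to fatty acid synthesis, gave signals of 7.95, 8.11, 8.17 and 8.02 in the AdGFP wells of rats 1 to 4. The AdHIF1a wells gave 8.11, 7.80, 8.00 and 7.79. The groups overlapped, with rat 1 higher and the other 3 rats lower under AdHIF1a. The difference of -0.14 ± 0.11 did not pass the test (95% interval -0.41 to 0.13, adjusted p = 0.490, probe set 17649706).

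Scd, the desaturase that makes oleate and palmitoleate, had the widest spread of differences among the 9 genes. Its AdGFP signals were 8.30, 8.22, 8.87 and 8.92 and its AdHIF1a signals 8.98, 8.65, 8.62 and 9.06. The control wells of rats 3 and 4 were within the range of the AdHIF1a wells, and rat 3 went down while the other 3 went up. The difference was 0.25 ± 0.17 (interval -0.16 to 0.66, adjusted p = 0.406, probe set 17642329).

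Elovl5, an elongase of polyunsaturated fatty acids, gave 10.91, 11.03, 11.02 and 11.12 in the AdGFP wells. Under AdHIF1a it gave 10.53, 10.31, 10.65 and 10.29. Every AdHIF1a well lay below every AdGFP well. Elovl5 fell by 0.58 ± 0.12 (1.49-fold, interval 1.22 to 1.82, adjusted p = 0.0312, probe set 17846083), with falls of 0.38, 0.72, 0.37 and 0.83 in rats 1 to 4. Leaving out rat 2, 3 or 4 ended the call (adjusted p = 0.145, 0.0727 and 0.131).

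Gpam, the mitochondrial enzyme that puts the first acyl chain on glycerol-3-phosphate, rose in all 4 rats. Its signals went from 9.41, 9.54, 9.31 and 9.46 to 10.46, 10.12, 10.08 and 10.23. The groups were apart, with the lowest AdHIF1a well above the highest AdGFP well. The difference was 0.79 ± 0.11, or 1.73-fold (interval 1.44 to 2.08, adjusted p = 0.0105, probe set 17642902). Without rat 4 the size was 0.80 and the adjusted p 0.0633.

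In the choline route, Chka, the kinase that traps choline in the cell, gave 10.11, 10.05, 9.86 and 9.86 in the AdGFP wells. The AdHIF1a wells gave 8.93, 9.20, 9.05 and 8.88, all below the controls. Chka fell by 0.96 ± 0.10 (1.94-fold, interval 1.63 to 2.30, adjusted p = 0.00562, probe set 17622730). Its call held without each rat in turn, at adjusted p from 0.0166 to 0.0416.

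Pcyt1a, the enzyme that couples phosphocholine to CTP, gave 7.90, 8.42, 8.06 and 8.33 under AdGFP and 7.90, 7.86, 7.94 and 7.70 under AdHIF1a. The signal was equal in rat 1 and lower under AdHIF1a in the other 3 rats, and the groups overlapped. The difference of -0.33 ± 0.14 did not pass the test (interval -0.67 to 0.02, adjusted p = 0.201, probe set 17669787). It ranged from -0.44 to -0.23 when 1 rat was left out, and was not called in those fits.

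Chpt1, the Golgi cholinephosphotransferase that completes phosphatidylcholine, gave 6.87, 7.64, 7.03 and 7.05 in the AdGFP wells. In the AdHIF1a wells it gave 8.06, 8.35, 7.94 and 8.07. Rat 2 was highest under both viruses, and the groups did not overlap. Chpt1 rose by 0.96 ± 0.11 (1.94-fold, interval 1.61 to 2.34, adjusted p = 0.00666, probe set 17834867), and its call held without each rat, at adjusted p from 0.0205 to 0.0478.

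Cept1, the enzyme that completes both phosphatidylcholine and phosphatidylethanolamine, had signals of 8.90, 9.12, 9.04 and 8.78 under AdGFP and 9.03, 9.13, 9.03 and 9.05 under AdHIF1a. The groups overlapped. The difference was 0.10 ± 0.09 (interval -0.13 to 0.33, adjusted p = 0.555, probe set 17750298).

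Lpcat1, the remodelling acyltransferase, gave 10.17, 10.21, 10.01 and 10.35 in the AdGFP wells. Under AdHIF1a it gave 9.77, 9.14, 9.41 and 9.23, all lower. It fell by 0.80 ± 0.15 (1.74-fold, interval 1.34 to 2.26, adjusted p = 0.0263, probe set 17628061). The fall was 0.40 and 0.60 in rats 1 and 3, and 1.07 and 1.12 in rats 2 and 4. It was no longer called when rat 2, 3 or 4 was left out (adjusted p = 0.119, 0.0762 and 0.116).

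**Figure D2:**
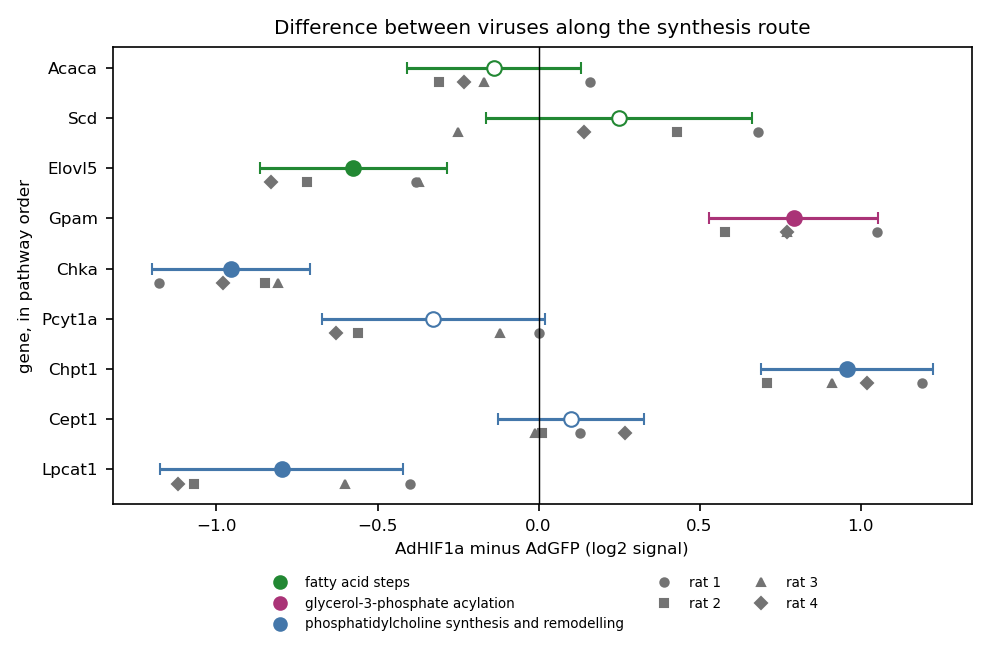
Difference between the viruses (horizontal axis, AdHIF1a minus AdGFP in log2 signal) for the 9 measured genes in pathway order. Circles are paired means with 95% intervals (filled where the gene was called, coloured by step), and grey symbols are the 4 rats; Gpam and Chpt1 lie at 0.79 and 0.96, and Chka, Lpcat1 and Elovl5 at -0.96, -0.80 and -0.58.

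Set against each other, the fatty acid genes and the phosphatidylcholine genes showed no single direction on either side. Of the 3 measured fatty acid genes 1 fell and 2 were not called, with a median of -0.14. Of the 5 phosphatidylcholine genes 1 rose, 2 fell and 2 were not called, with a median of -0.33. Rat by rat, the fatty acid median was 0.16, -0.31, -0.25 and -0.23, and the phosphatidylcholine median was 0, -0.56, -0.12 and -0.63. Rat 1 lay at or above 0 in both, and the other 3 rats lay below 0. With so few genes a side, and with results known when they were chosen, no test was made between the sides.

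The rats differed in the same way for several of these genes. Elovl5, Pcyt1a and Lpcat1 fell further in rats 2 and 4 than in rats 1 and 3, whereas the changes of Gpam, Chpt1 and Chka were largest in rat 1 (1.05, 1.19 and -1.18). The first pattern is common on these arrays: among the 1411 lower genes, 58.0% had their 2 largest falls in rats 2 and 4, and the median fall of all lower genes was 0.57, 0.76, 0.59 and 0.86 in rats 1 to 4. A largest change in rat 1 was found for 34.0% of the 1032 higher genes and for 10.4% of the lower genes.

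Several steps of the route have more than 1 enzyme, and the response of each gene was set against that of enzymes that share its step. For Elovl5 these were other elongases, which need not lengthen the same chains. Chpt1 and Cept1 both transfer phosphocholine to diacylglycerol. The difference of Chpt1 exceeded that of Cept1 by 1.06, 0.70, 0.92 and 0.75 in rats 1 to 4, or 0.86 ± 0.16 (SD, 4 rats). Chka was compared in the same way with the second choline kinase, Chkb, which differed by 0.21 ± 0.13 and was not called. Chka lay below Chkb by 1.19, 1.21, 0.74 and 1.51, a mean of -1.16 ± 0.32 (SD). At the CTP step, Pcyt1a lay below Pcyt1b by 0.39 ± 0.15 (SD), and neither was called alone. The signal of Pcyt1b was low (5.65 under AdGFP and 5.71 under AdHIF1a), little above the median over all arrays (5.1). The sign of Pcyt1b itself (0.06 ± 0.16 SE) turned negative with quantile normalization (-0.01), with median centring (-0.02) or with array weights (-0.05).

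The carboxylases were compared as well. Acacb, the form at the outer mitochondrial membrane whose malonyl-CoA restrains fatty acid oxidation, fell by 0.87 ± 0.14, and Acaca lay above it by 0.73 ± 0.18 (SD). For glycerol-3-phosphate acylation, Gpat3 rose with Gpam by 0.94 ± 0.14, and the 2 differed by -0.14 ± 0.25 (SD) with both signs among rats. Gpat4 differed by 0.03 ± 0.11, and Gpam exceeded it by 0.76 ± 0.18 (SD). Lpcat1 lay below Lpcat3, which makes polyunsaturated phosphatidylcholine, by 0.73 ± 0.32 (SD), and below Lpcat4 by 0.84 ± 0.57 (SD). Elovl5 lay below Elovl1, Elovl6 and Elovl7 by 0.56, 0.62 and 0.61, with Elovl6 at a low signal (5.59 under AdGFP and 5.63 under AdHIF1a). Scd and Scd2 differed by 0.12 ± 0.35 (SD).

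The pairs are not separate, since Elovl5, Gpam and Lpcat1 each enter more than 1. Of all 18166 genes taken singly, 3708 were lower and 3252 higher in all 4 rats, and other pairs of genes were not counted. Chpt1, Chka, Gpam, Lpcat1 and Elovl5 each moved 1 way in all 4 rats, and the pairs were chosen with earlier results known. Against a partner that changed little, 1 sign in all 4 rats follows from the gene itself. In 10 of the 12 pairs compared, all 4 rats gave the same sign. The exact two-sided permutation test, which turns signs within rats, then gave p = 0.125, the smallest that 4 rats allow, and 0.15 after adjustment over the 12 pairs, so this test cannot bring a pair past 0.05 with 4 rats. For Gpam and Gpat3 the exact p was 0.5, and for Scd and Scd2 it was 0.625.

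**Figure D3:**
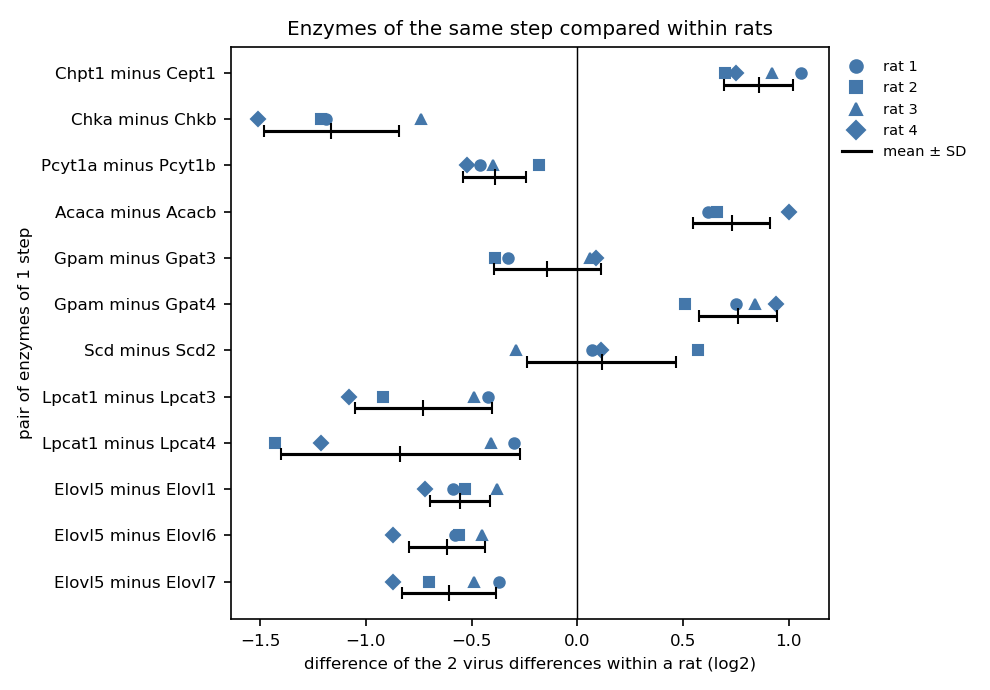
Difference between 2 enzymes of 1 step (for Elovl5, between 2 elongases) in their response to the virus for 12 pairs. The horizontal axis is log2, first gene minus second within each rat. Symbols are rats and bars the mean ± SD; 10 pairs lie on 1 side of 0 in all 4 rats, with Chka minus Chkb at -1.16 and Chpt1 minus Cept1 at 0.86, while Gpam minus Gpat3 and Scd minus Scd2 straddle 0.

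Genes that feed the route or surround it were counted in 8 lists, whose shares stand beside 5.68% higher and 7.77% lower over all genes. Those 2 shares include dim genes, and shares over genes of like signal were not counted. In the list of fatty acid supply, elongation and desaturation, 27 of 29 genes were measured, 1 was higher (3.7%) and 5 were lower (18.5%). The median was -0.02. Acly, which makes cytosolic acetyl-CoA from citrate, rose by 0.75 ± 0.11. The front-end desaturase Fads1 fell by 1.33 ± 0.21 and Fads3, of the same family, by 1.21 ± 0.14. Acacb is given above. Also lower, and named after their values were seen, were the desaturase Fads2 (-0.88 ± 0.18) and Hacd4, a dehydratase of elongation (-0.83 ± 0.18). The signal of Hacd4 was low (5.82 to 5.00), close to the median over all arrays (5.1). Calls of Acacb, Acly and Fads1 were lost without rat 2 or 4, and those of Acacb and Fads1 also without rat 3 (adjusted p from 0.0658 to 0.092), as was that of Fads2 (0.0792, 0.0975 and 0.13 without rats 2, 3 and 4) and that of Hacd4 whichever rat was left out (0.0575 to 0.159), and the number of lower genes then ranged from 1 to 6.

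The glycerolipid backbone list, which runs to phosphatidate and triacylglycerol, had 3 of 21 measured genes higher (14.3%) and 2 lower (9.52%), with a median of -0.09. Besides Gpat3, the higher genes were the lysophosphatidate acyltransferase Agpat5 (0.52 ± 0.10) and Dgat2, which makes triacylglycerol from diacylglycerol (0.53 ± 0.10). Lpin2, a phosphatidate phosphatase that makes diacylglycerol, fell by 0.87 ± 0.12 and the acyltransferase Agpat4 by 0.43 ± 0.10. All 5 calls were lost without rat 2 or rat 4, and Agpat4 and Dgat2 also without rat 1 or 3 and Agpat5 without rat 1 (adjusted p from 0.0515 to 0.193), so that 0 to 2 genes were higher and 0 to 1 lower. Median centring of the arrays ended the calls of Agpat5 (0.0711) and Dgat2 (0.0861), and quantile normalization that of Agpat4 (0.0538).

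Choline uptake and the other phospholipid branches had 1 of 21 measured genes higher (4.76%) and 3 lower (14.3%), with a median of -0.07. Slc44a2 and Slc44a3, choline transporter-like proteins, fell by 1.65 ± 0.16 and 0.98 ± 0.16. The former went from a signal of 9.57 to 7.92 and kept its call without each rat. The ethanolamine kinase Etnk1 fell by 0.52 ± 0.10, and Pisd, which makes phosphatidylethanolamine from phosphatidylserine in mitochondria, rose by 0.43 ± 0.09. Pcyt2, the ethanolamine counterpart of Pcyt1a, differed by 0.05 ± 0.09 (adjusted p = 0.792) and by -0.03 after median centring. Calls of Slc44a3, Etnk1 and Pisd were lost without rat 2 or 4, Etnk1 and Pisd also without rat 3 and Pisd without rat 1 (adjusted p from 0.0723 to 0.155), and that of Pisd with median centring (0.15). The number of lower genes then ranged from 1 to 3.

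In the remodelling list 1 of 19 measured genes was higher and 1 lower (5.26% each, below the shares over all genes), with a median of 0.00. Pla2g1b, a secreted phospholipase A2, rose by 1.53 ± 0.15 and kept its call without each rat. Pla2g2a, another secreted phospholipase, fell by 0.46 ± 0.09 at signals near the floor (4.87 to 4.41), and its call was lost whichever rat was left out (adjusted p from 0.0565 to 0.136) and without the pairing of wells (0.0593). Lpcat2 was not analysed here.

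Regulators of lipid synthesis went both ways, with 5 of 28 measured genes higher (17.9%), 3 lower (10.7%) and a median of 0.07. Prkab2, a subunit of AMP-activated protein kinase, which inhibits acetyl-CoA carboxylase, rose by 2.28 ± 0.12. Insig2, which holds the SREBP complex in the endoplasmic reticulum, rose by 1.05 ± 0.08 and the transcription factor gene Cebpb by 1.05 ± 0.11. Srebf1, the SREBP gene most tied to fatty acid synthesis, rose by 0.57 ± 0.11 and, named after its value was seen, Insig1 by 0.35 ± 0.08. The nuclear receptor genes Ppara and Pparg fell by 0.58 ± 0.09 and 0.55 ± 0.12, and the coactivator gene Ppargc1a by 0.56 ± 0.11. Signals of Ppara (5.7 to 5.1) and Ppargc1a (5.2 to 4.7) were low, close to the median over all arrays (5.1). Prkab2, Insig2 and Cebpb kept their calls without each rat. Those of Srebf1, Ppara, Pparg and Ppargc1a were lost without rat 2 or 4, of Srebf1 and Pparg also without rat 1 and of Ppara and Ppargc1a without rat 3 (adjusted p from 0.0532 to 0.163), and that of Insig1 whichever rat was left out (0.0699 to 0.217). Srebf1 (0.0764) and Insig1 (0.206) were also lost with median centring, and Pparg (0.0865) and Ppargc1a (0.0623) without the pairing of wells, Pparg also with the rat as a random block (0.0654). With 1 rat left out, 3 to 4 genes of the list were higher and 0 to 2 lower.

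Fatty acid oxidation, which consumes the chains the route makes, had 9 of 24 measured genes lower (37.5%, against 7.77% of all genes) and 15 not called, with a median of -0.38. The median was -0.12, -0.48, -0.43 and -0.46 in rats 1 to 4. Cpt1a, the carnitine acyltransferase that admits fatty acids to mitochondria, fell by 0.94 ± 0.10, and the dehydrogenase Acadl and the isomerase Eci2 fell by 0.80 ± 0.14 and 1.01 ± 0.18. Cpt1a kept its call without each rat. Acadl and Eci2 lost theirs without rat 2, 3 or 4 (adjusted p from 0.0833 to 0.111), and the number of lower genes ranged from 1 to 12 when a rat was left out.

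Among genes that activate or bind fatty acids 3 of 19 measured were higher (15.8%) and 2 lower (10.5%), with a median of -0.05. The acyl-CoA synthetase gene Acsl1 rose by 0.73 ± 0.14, Slc27a3 of the fatty acid transport family by 1.71 ± 0.28 and Slc27a2 of the same family by 0.41 ± 0.09, from a signal near the floor (4.11). Acot7, a thioesterase, and Acsl5 fell by 0.75 ± 0.10 and 0.37 ± 0.08. All 5 calls were lost without rat 2 or rat 4 (adjusted p from 0.0708 to 0.194), 4 of them without rat 3 (0.0547 to 0.141; Slc27a3 held) and 3 without rat 1 (0.0598 to 0.0711; Slc27a3 and Acot7 held). Acsl5 (0.0727) and Slc27a2 (0.153) were also lost with median centring, as with quantile normalization (0.057 and 0.0685), and Slc27a2 with the trended prior (0.0511). With 1 rat left out, 0 to 1 genes were higher and 0 to 2 lower.

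Lamellar bodies are the organelles in which ATII cells store surfactant. Of 14 measured genes of these bodies and of phosphatidylcholine transfer, 2 were higher (14.3%) and 4 lower (28.6%), with a median of -0.20. Abca3, the transporter that loads phosphatidylcholine into them, differed by -0.39 ± 0.11 (adjusted p = 0.0773), in 4 of 4 rats downward. It passed the test in 6 of 12 alternatives that kept all rats, at adjusted p down to 0.0234. The surfactant protein genes Sftpa1 and Sftpb rose by 0.89 ± 0.10 and 0.69 ± 0.11. Napsa, an aspartic protease of surfactant protein processing, fell by 1.52 ± 0.18, and Rab3d and Vamp8, which act in vesicle trafficking, fell by 0.98 ± 0.12 and 0.62 ± 0.09. The lamellar body membrane gene Lamp3, named after its value was seen, fell by 0.78 ± 0.13. Sftpa1 kept its call without each rat. Napsa, Rab3d, Vamp8, Sftpb and Lamp3 lost theirs without rat 2, all of these but Napsa without rat 4, and Sftpb and Lamp3 without rat 3 (adjusted p from 0.0509 to 0.0928), and Sftpb without the pairing of wells (0.128) or with the rat as a random block (0.0968). The number of lower genes ranged from 0 to 4.

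**Figure D4:**
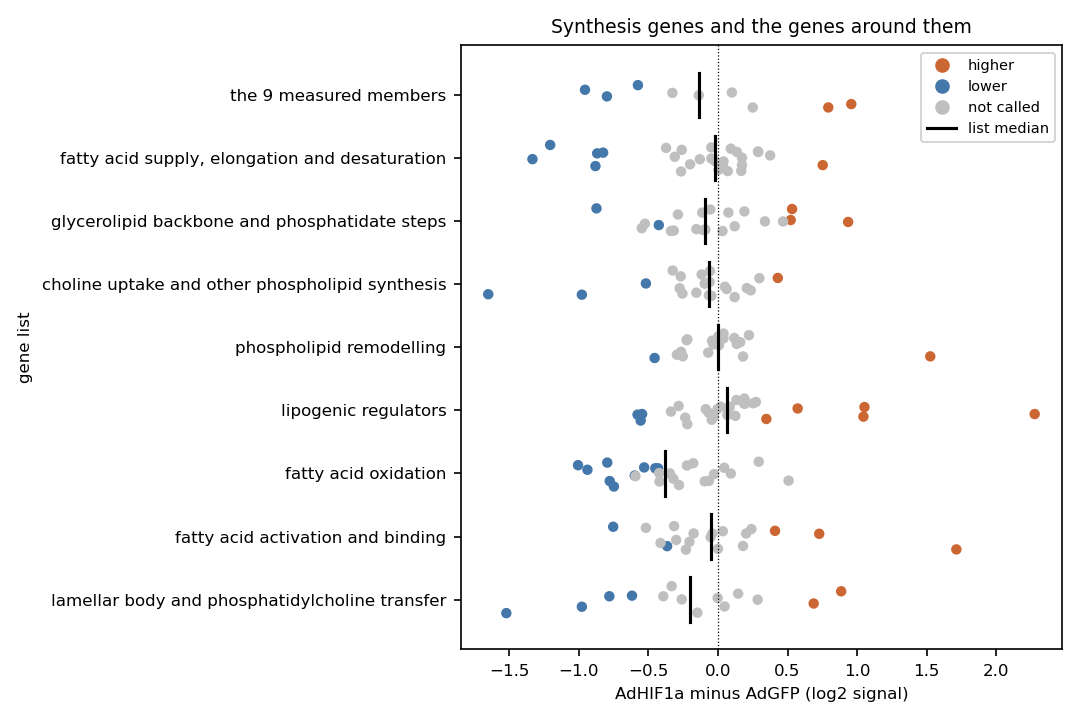
Difference between the viruses (horizontal axis, AdHIF1a minus AdGFP in log2 signal) of each measured gene, in rows for the 9 synthesis genes and the 8 lists around them, with called genes in colour and the median of each row as a bar. The oxidation genes have the lowest median (-0.38), and the rightmost point is Prkab2 at 2.28.

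The deposited label of the cells was checked against marker genes, with the same shares over all genes (5.68% higher, 7.77% lower) as background. The 11 measured ATII markers were all above the median signal. So were all but 1 of the 12 type I markers and all but 1 of the 16 macrophage markers, so this level does not tell these cells apart. The summed signal of the ATII markers was 14.26 to 14.65 in AdGFP wells and 14.13 to 14.52 in AdHIF1a wells on the log2 scale. Of them 2 were higher and 5 lower, with Lpcat1 itself one of the 5. The 12 alveolar type I markers had 2 higher and 7 lower, and their sum was 14.17 to 14.61 in AdGFP wells and 13.63 to 14.06 in AdHIF1a wells, without overlap, beside the lower signals of Lpcat1, Chka and Elovl5. Their part in those results was not tested. Of 16 macrophage markers 0 were called in limma, and their median difference was -0.03. At an unadjusted p under 0.05, 1 was higher (Lyz2) and 4 were lower (Mrc1, Siglec1, Csf1r and Ptprc). The sum of the 16 was 13.70 to 14.05 and 13.96 to 14.23. Most of that sum came from Lyz2 (12.59 to 12.89) and Cd74 (12.35 to 12.52), so it says little of the others. Fibroblast and muscle markers summed to 10.80 to 11.40 and 10.81 to 11.31, with Plin2 higher and Tagln lower. Most of that sum came from Plin2 (9.9 to 10.7) and Tagln (9.9 to 7.5), which moved in opposite directions, so it says little of the others. Endothelial markers summed to 9.75 to 10.24 and 9.26 to 9.59. Esam, the brightest of these 6 genes and the only one called, was lower (9.68 to 8.75), while their median difference was 0.04. Club and ciliated cell markers summed to 12.74 to 12.84 and 12.49 to 12.86 with Ccdc39 and Tppp3 lower. Most of that sum came from Scgb1a1 (12.65 to 12.68). Lymphocyte markers summed to 7.91 to 8.43 and 7.77 to 8.11.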

How the data were processed

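The authors deposited log2 signals for 36685 probe sets on each of 8 arrays, made with Affymetrix Expression Console per the submitters' processing notes. How the signals were summarized and normalized, the version and the build are not given in the sources; the values, from 1.42 to 13.57, show a log2 scale. Upper quartiles of 7.62 to 7.68 lie close together, so a general shift of all transcripts would not be seen. Medians (5.00 to 5.20) differed more: they were higher under AdHIF1a in rats 2, 3 and 4 and lower in rat 1. Median centring moved the median difference of all genes from -0.005 to -0.0875. No detection calls were used, and precision is limited by the number of arrays.

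Probe sets with 1 gene symbol in the platform annotation (18511) gave 18166 genes, taking the highest mean over 8 arrays; 575 had several symbols and 17599 none. The virus was tested with limma 3.58.1 in R 4.3.3 (lmFit, eBayes, two-sided), fitted over all probe sets, with a fixed block for each rat, and adjusted over the genes. A fit with the variance prior over the probe sets taken for the 18166 genes alone had been run before it. The fit over all probe sets, which calls fewer genes, was then taken to follow earlier processing of these data. The other was kept as an alternative, a choice made after seeing the data. The series' design pairs the wells of each rat; deviations of paired wells correlated at 0.177 to 0.265, those of wells of different rats at -0.22 to 0.0766. The fit was run on simulated data with independent errors. The changes added there were larger than most reported here, so that run says little of smaller ones.

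The 10 genes, the 8 lists, the markers and the 12 enzyme pairs were chosen with earlier results of these data known. The 3 called genes of each list with the smallest adjusted p in each direction were named, with Acly, Srebf1, Pcyt1b, Chkb, Pcyt2, Lpcat2, Abca3 and Cpt1a. Of the 191 listed genes outside the 10, 173 were measured. Alternatives covered pairing, scaling, filters, weights, the variance prior, averaging of probe sets, thresholds and leaving out each rat.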

Additional observations from a re-analysis of the deposited data

Results flagged for a closer look

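In 96 groups of 4 wells (each gene named by the rule, under each virus), 6 held a well whose distance from the nearest other well, as a share of the range of the group, exceeded the critical value of Dixon's test; chance gives about 1 in 20. None belonged to the 9 synthesis genes. Rat 1 was apart in 5 of them. Its AdGFP well was high for Pla2g1b (8.07, others 7.15 to 7.29) and Vamp8 (10.2, others 9.73 to 9.81), and low for Acadl (10.15, others 10.52 to 10.58) and Acot7 (8.37, others 9.06 to 9.15). Its AdHIF1a well was also low for Acot7 (7.9, others 8.22 to 8.28). The AdGFP well of rat 3 was low for Abca3 (8.72, others 8.89 to 8.90).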

How the results depend on the processing

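The 9 synthesis genes kept their direction under all 16 alternatives. Chka and Chpt1 also kept their calls under all of them, and Acaca, Scd, Pcyt1a and Cept1 were called under none. At an adjusted p under 0.01, 1 gene was higher (Chpt1) and 1 lower (Chka), and 349 and 307 over all genes. Requiring 1.5-fold left 656 higher and 924 lower genes in all, and ended the call of Elovl5. Leaving out 1 rat gave 1 to 2 higher and 1 to 3 lower synthesis genes, and 315 to 775 higher and 246 to 1231 lower genes in all; Gpam was lost without rat 4, and Elovl5 and Lpcat1 without rat 2, 3 or 4. Fewer rats leave fewer degrees of freedom. Median centring gave 635 higher and 1324 lower genes in all, against 1032 and 1411. The variance prior over the probe sets taken for the tested genes alone gave 1576 and 2098. The fit without the replicate block called the same number of synthesis genes (2 higher, 3 lower) and 1279 and 1672 genes in all. Among genes of the lists, 8 of 35 named calls were kept without each rat. The sign turned for Pcyt2 with median centring (-0.033) and for Pcyt1b with quantile normalization (-0.0081), median centring (-0.02) and array weights (-0.047), and Pcyt1b ranged from -0.07 to 0.21 when 1 rat was left out; neither was called, and the cause was not tested.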
